A study of Mus musculus with 6 samples.

Results

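The leukocyte integrin genes described here are the 10 genes Itgam, Itgax, Itgal, Itgad, Itgb2, Itga4, Itga5, Itga6, Itgb1 and Itgb7, taken by symbol from 23935 gene symbols. The family was selected on the genotype difference of Itgam, which encodes CD11b, with that value already known, so the values of Itgam, its interval and its place among the called genes included, are a description from which no support is drawn. RNA was sequenced from bone marrow-derived macrophages (BMDMs) of 3 PKM2FL/FL and 3 PKM2ΔMAC mice, with 1 library per mouse. PKM2FL/FL mice carried the floxed allele alone and were the littermate controls. PKM2ΔMAC mice carried it with LysM-Cre in addition, in which the Lyz2 locus drives the recombinase in myeloid cells. Bone marrow cells of both groups were grown with M-CSF for 7 days and then primed for 16 h with LPS (10 ng/mL) together with 25 ng/mL of IFN-γ, so all 6 libraries come from primed macrophages and none from unprimed cells. The age of the mice used for sequencing is not given in the sources used here.

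Integrins are adhesion receptors made of 1 alpha and 1 beta chain that pair inside the cell and reach the surface together. The β2 chain (CD18, Itgb2) pairs with αM (CD11b, Itgam), αX (CD11c, Itgax), αL (CD11a, Itgal) and αD (CD11d, Itgad), and these 4 receptors bind ligands such as ICAM-1, fibrinogen and complement fragments. The β1 chain (Itgb1) pairs with α4 (Itga4), α5 (Itga5) and α6 (Itga6), which bind VCAM-1 and fibronectin, fibronectin, and laminin, respectively, and the β7 chain (Itgb7) pairs with α4 in a receptor for the gut addressin MAdCAM-1. In macrophages, αMβ2 is also known as complement receptor 3 and takes part in adhesion and in uptake of opsonised particles.

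The 4 β2 alpha genes all lie on chromosome 7 (plus strand, GRCm38/mm10, GENCODE M21 annotation). Itgal spans 127296260 to 127335138, Itgam spans 128062640 to 128118491, Itgax spans 128129547 to 128150657 and Itgad spans 128154376 to 128223816. Itgam ends 11.1 kb before Itgax starts, and Itgax ends 3.7 kb before Itgad starts, whereas 727.5 kb separate Itgal from Itgam. Itgb2 lies on chromosome 10 from 77530252 to 77565708 and Itgb1 on chromosome 8 from 128685654 to 128733200, both on the plus strand. Itga6 (71745616 to 71858416) and Itga4 (79255426 to 79333123) lie on the plus strand of chromosome 2, and Itgb7 (102215995 to 102231944) and Itga5 (103344286 to 103366763) on the minus strand of chromosome 15. Gm49368 lies on the same strand as Itgam and shares 3450 exonic bases with it, but was counted between 0 and 8 times per library. Cerkl, on the strand opposite to Itga4, shares 1124 exonic bases with it and was counted between 17 and 46 times. Itgad shares 388 exonic bases with 4931431B13Rik and 70 with Cox6a2, both on the opposite strand, and whether reads were counted by strand is not given in the sources used here.

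Itgam is the gene on which the family was chosen, and its direct neighbour Itgax encodes another β2 alpha chain on chromosome 7. The sequences before the start sites of both are therefore shown. They are the 250 bases upstream of the RefSeq start (GRCm38.p6, plus strand, 5′ to 3′), at chr7:128062390-128062639 for Itgam and chr7:128129300-128129549 for Itgax. Capitals mark each match to GAGGAA on either strand (read as TTCCTC on the other), the core bound by PU.1, an ETS factor of the myeloid lineage encoded by Spi1.
Itgam: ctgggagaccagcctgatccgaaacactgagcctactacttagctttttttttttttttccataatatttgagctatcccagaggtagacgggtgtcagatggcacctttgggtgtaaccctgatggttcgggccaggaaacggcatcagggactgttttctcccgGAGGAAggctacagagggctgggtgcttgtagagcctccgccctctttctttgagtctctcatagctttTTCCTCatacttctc
Itgax: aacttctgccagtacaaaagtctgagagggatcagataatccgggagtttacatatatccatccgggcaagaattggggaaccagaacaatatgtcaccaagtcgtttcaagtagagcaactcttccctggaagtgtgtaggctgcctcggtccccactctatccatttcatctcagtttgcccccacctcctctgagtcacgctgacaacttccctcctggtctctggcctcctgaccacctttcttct
The Itgam stretch holds 2 matches, from 84 to 79 bases before the start on the gene's strand and from 15 to 10 bases before it on the other strand. The Itgax stretch holds 0. Of 32851 RefSeq promoters of this length, 23.3% held at least 1 match and 3.54% held 2 or more (22.9% and 3.5% of the 14587 promoters of tested genes). GGGCGG, the GC box bound by Sp1, was found once in the Itgam stretch, on the other strand from 47 to 42 bases before the start, and in 32.7% of all promoters (54.8% of those of tested genes). The RUNX core TGTGGT was found in neither stretch and in 14.0% of all promoters (10.9% of those of tested genes). Of the 6 members with a RefSeq promoter in the table used, Itgb1 and Itga5 held 1 GAGGAA match each, and Itga4 and Itgb7 held 0. GC content before Itgam was 49.6%.

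Between 49957449 and 54524651 reads were counted per library, and the counts were scaled by TMM factors between 0.980 and 1.04 to CPM, the counts relative to library size. In edgeR's quasi-likelihood test on genotype, 68 of the 16516 genes tested had a Benjamini-Hochberg adjusted p under 0.05, which is 0.412% of them, and these are the genes referred to as called. The higher-called genes numbered 47, or 0.285%. Over all genes tested, 9.83% had an unadjusted p under 0.05 and 17.2% did not overlap between genotypes. DESeq2 called 302 of the same 16516 genes. These shares stand beside the counts of each gene list below. Pkm, the targeted gene, stood at 57.9%, 71.1% and 58.9% of the PKM2FL/FL mean in PKM2ΔMAC mice 1 to 3. The Pkm counts do not separate PKM1 from PKM2. Lyz2, in which Cre is placed, was between 44825 and 49590 TPM in PKM2FL/FL and between 70.4 and 87.6 TPM in PKM2ΔMAC. TPM values are scaled to a fixed sum, and the median log2 fold change of all genes on the TPM scale was between 0.046 and 0.0665 (-0.000207 on counts). The library of PKM2ΔMAC mouse 2 stood apart from the others of its genotype. Its counts differed from theirs by a chi-square of 35.0 and 43.5 per degree of freedom, against 8.47 between the other two, and without it 299 genes were called. All 10 integrin genes were counted in every library and all 10 passed the filter on low counts.

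Itgam was higher in every PKM2ΔMAC library than in any PKM2FL/FL library. It was counted at 197, 193 and 198 CPM in PKM2FL/FL mice 1 to 3 and at 253, 272 and 266 CPM in PKM2ΔMAC mice 1 to 3. The means were 195.6 ± 2.54 and 263.8 ± 9.31 CPM (SD, n = 3 each). The log2 fold change was 0.43 (SE 0.04, 95% interval 0.34 to 0.52), which is 1.35-fold. The spread between mice was small, with a coefficient of variation of 1.30% in PKM2FL/FL and 3.53% in PKM2ΔMAC. In a culture, more RNA per cell and more cells that carry the RNA cannot be told apart in these bulk libraries. Itgam was the only called member, 1 of 10, beside the 0.412% of all genes given above, and since that contrast was used to choose the family nothing is read from this share. Without the library of PKM2ΔMAC mouse 2 the log2 fold change of Itgam was 0.41.

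**Figure D1:**
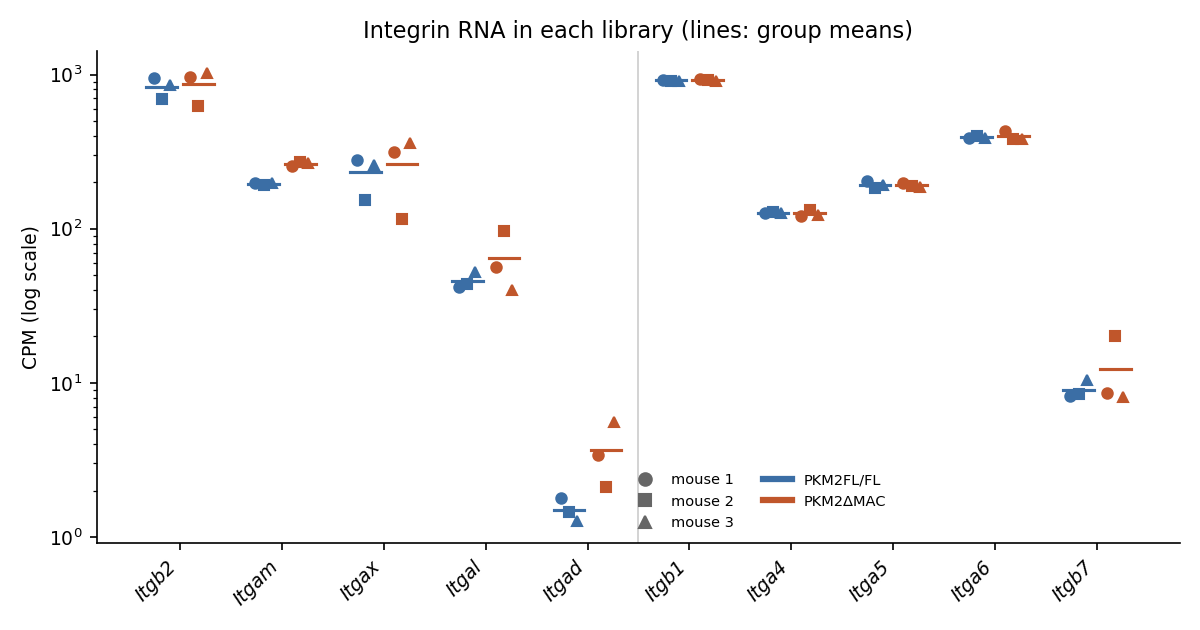
CPM of the 10 integrin genes on a log axis, β2 family left of the grey line and β1 and β7 genes right of it. Each symbol is 1 library (blue PKM2FL/FL, orange PKM2ΔMAC, shape by mouse number) and each line a group mean. The 3 PKM2ΔMAC libraries of Itgam (253 to 272 CPM) lie above the PKM2FL/FL libraries (193 to 198 CPM), while Itgax and Itgb2 are lowest in mouse 2 of both genotypes.

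Itgb2, the gene of the β2 chain that pairs with αM, did not pass the test. Itgb2 stood at 945, 691 and 861 CPM in PKM2FL/FL mice 1 to 3 and 963, 622 and 1021 CPM in PKM2ΔMAC mice 1 to 3. The groups overlapped, and mouse 2 was the lowest of each genotype. The log2 fold change was 0.06 (SE 0.23, 95% interval -0.52 to 0.64, adjusted p = 0.961 in edgeR).

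Itgax, which encodes CD11c, a chain of macrophages and dendritic cells, varied most among the abundant members. It was 281, 154 and 260 CPM in PKM2FL/FL mice 1 to 3 and 314, 115 and 361 CPM in PKM2ΔMAC mice 1 to 3, again lowest in mouse 2 of each genotype. The coefficient of variation was 29.2% in PKM2FL/FL and 49.6% in PKM2ΔMAC, and its log2 fold change, 0.19 (SE 0.49, 95% interval -1.08 to 1.45, adjusted p = 0.942 in edgeR), was smaller than its error. When both libraries numbered 2 were left out, an alternative chosen after this pattern was seen, the log2 fold change was 0.33 for Itgax (SE 0.07, adjusted p = 0.165, between 0.165 and 0.993 over all alternatives) and 0.14 for Itgb2 (SE 0.05, adjusted p = 0.326, between 0.326 and 0.993), and neither was called.

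Itgal, the gene of the LFA-1 alpha chain found on most leukocytes, showed another order of the libraries. It was 41.9, 43.8 and 52.6 CPM in PKM2FL/FL mice 1 to 3 and 56.1, 96.9 and 40.1 CPM in PKM2ΔMAC mice 1 to 3. The highest and the lowest value of Itgal were both in PKM2ΔMAC libraries, those of mice 2 and 3. Its log2 fold change was 0.48 (SE 0.35, 95% interval -0.41 to 1.38, adjusted p = 0.736 in edgeR) and lay between 0.06, without PKM2ΔMAC mouse 2, and 0.73, without PKM2ΔMAC mouse 3, when each library was left out. It was 0.03 without both libraries numbered 2.

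Itgad, the gene of CD11d, a chain known from macrophages of the splenic red pulp, was the least abundant member. It was counted 96, 75 and 65 times in PKM2FL/FL mice 1 to 3 and 180, 116 and 277 times in PKM2ΔMAC mice 1 to 3, or 1.80, 1.44 and 1.28 against 3.39, 2.11 and 5.58 CPM. The groups did not overlap, although the PKM2ΔMAC libraries spread over a wide range. The log2 fold change was 1.29 (SE 0.35, 95% interval 0.47 to 2.11), with an adjusted p of 0.283 in edgeR over all genes, so Itgad was not called. It was called by DESeq2 (adjusted p = 0.0154) and by edgeR without PKM2ΔMAC mouse 2 (1.57, adjusted p = 0.00826). The log2 fold change was 0.87 without PKM2ΔMAC mouse 3 and 0.83 on log2(TPM + 1), a scale that understates the change of low genes, and over all alternatives its adjusted p lay between 0.00826 and 0.732. Itgam and Itgad were the 2 of 10 members whose genotypes did not overlap, beside 17.2% of all genes tested, and the same 2 of 10 had an unadjusted p under 0.05, beside 9.83%.

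**Figure D2:**
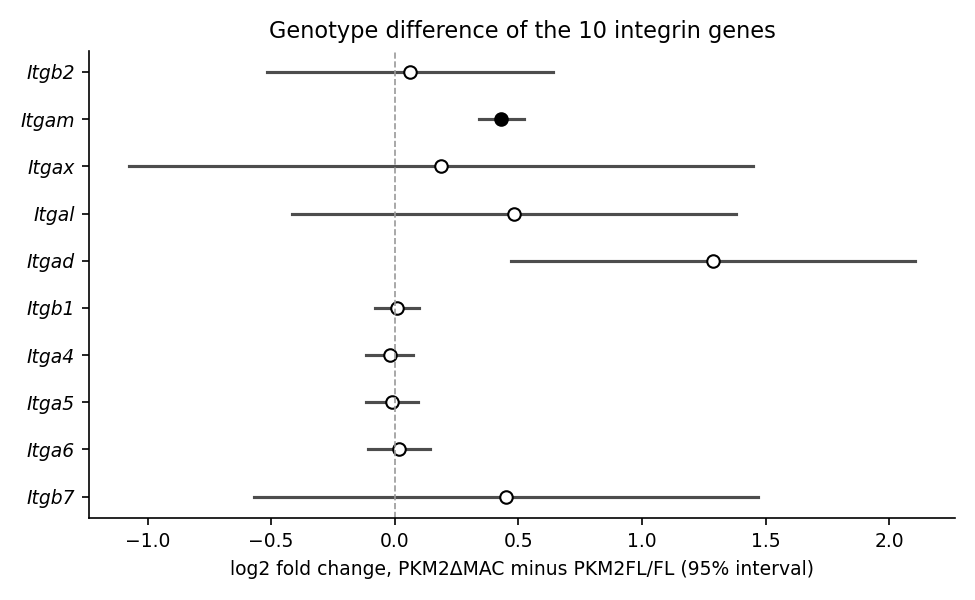
Log2 fold change of each integrin gene, PKM2ΔMAC minus PKM2FL/FL, with its 95% interval from edgeR (n = 3 per genotype). The filled point is Itgam (0.43, interval 0.34 to 0.52). The intervals of Itgax, Itgal, Itgb2 and Itgb7 are wide and include 0, those of Itgb1, Itga4, Itga5 and Itga6 are narrow around 0, and that of Itgad lies above 0 without passing the adjusted test.

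Relative to Itgb2, its partner, and to the other β2 alpha genes in the same library, Itgam was compared on TPM, scaled per transcript length. The log2 ratio of Itgam to Itgb2 was -2.80 ± 0.216 in PKM2FL/FL and -2.41 ± 0.425 in PKM2ΔMAC (SD, n = 3 each), a difference of 0.39 with overlapping libraries. It shrank to 0.15 without PKM2ΔMAC mouse 2, the library in which Itgam was highest and Itgb2 lowest. When any other library was left out, it lay between 0.30 and 0.52. The ratio of Itgam to Itgax differed by 0.36 between genotypes, and by 0.20 to 0.66 when any other library was left out. It turned to -0.18 without PKM2ΔMAC mouse 2. The ratio of Itgam to Itgal differed by 0.04 and that to Itgad by -0.77, both with overlapping libraries, and without that library these differences were 0.36 and -1.13. Without PKM2ΔMAC mouse 3 they were -0.26 and -0.42, and without PKM2FL/FL mouse 3 the ratio to Itgal differed by -0.05. The log2 ratio of Itgam to Itgb1, which is outside the β2 family, was -2.53 ± 0.022 in PKM2FL/FL and -2.10 ± 0.064 in PKM2ΔMAC, without overlap. The SD of the ratio was larger for each of the 4 β2 genes than for Itgb1.

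**Figure D3:**
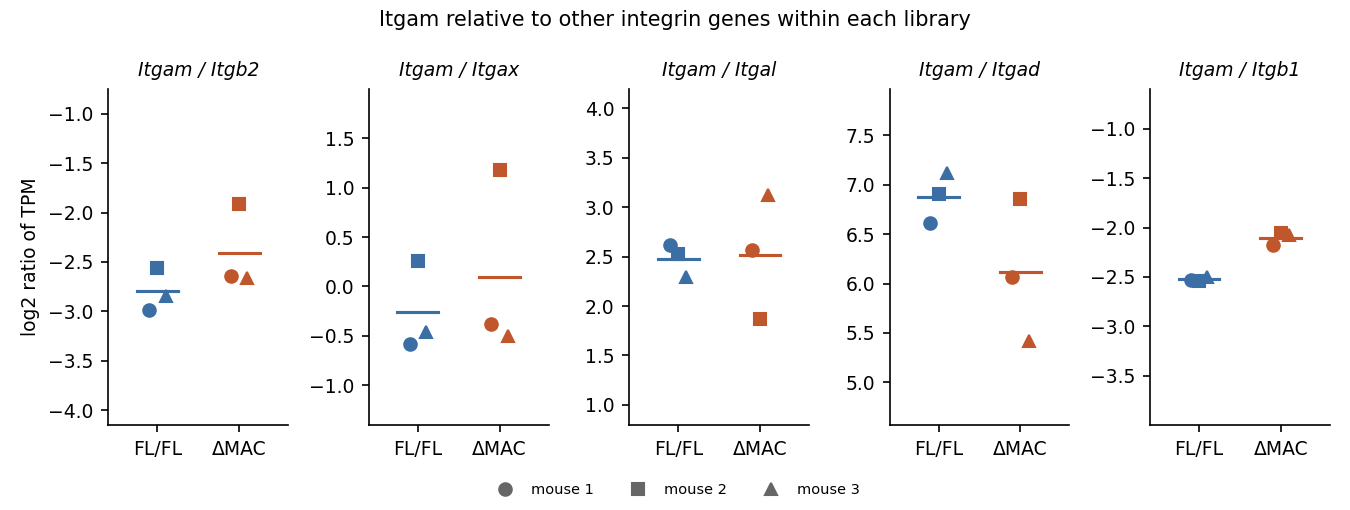
Log2 ratio of Itgam to each β2 family gene and to Itgb1 within each library (TPM), with group means as lines. Every panel spans the same range of log2 units on the vertical axis. The ratio to Itgb1 separates the genotypes (means -2.53 and -2.10), whereas those to Itgb2, Itgax, Itgal and Itgad overlap, with PKM2ΔMAC mouse 2 highest in the first 2 of these.

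The makeup of the β2 alpha chain RNA stood apart in the libraries of mouse 2 of each genotype. Of the summed TPM of Itgam, Itgax, Itgal and Itgad, Itgam took 37.5%, 49.5% and 38.7% in PKM2FL/FL mice 1 to 3 and 40.3%, 58.0% and 39.1% in PKM2ΔMAC mice 1 to 3. Itgax took 56.0%, 41.5% and 53.2% against 52.3%, 25.7% and 55.5%, and was the most abundant of the 4 in every library except those of mouse 2. Itgal took between 4.50% and 15.8%, the highest share in PKM2ΔMAC mouse 2. Itgad took between 0.279% and 0.413% in PKM2FL/FL and between 0.502% and 0.913% in PKM2ΔMAC, without overlap. The 4 alpha chains together reached 33.7%, 34.2% and 36.0% of the TPM of Itgb2 in PKM2FL/FL and 39.7%, 45.7% and 40.5% in PKM2ΔMAC. This ratio, 34.6 ± 1.24% against 42.0 ± 3.27% (SD, n = 3 each), did not overlap and contains Itgam, the gene by which the family was chosen.

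**Figure D4:**
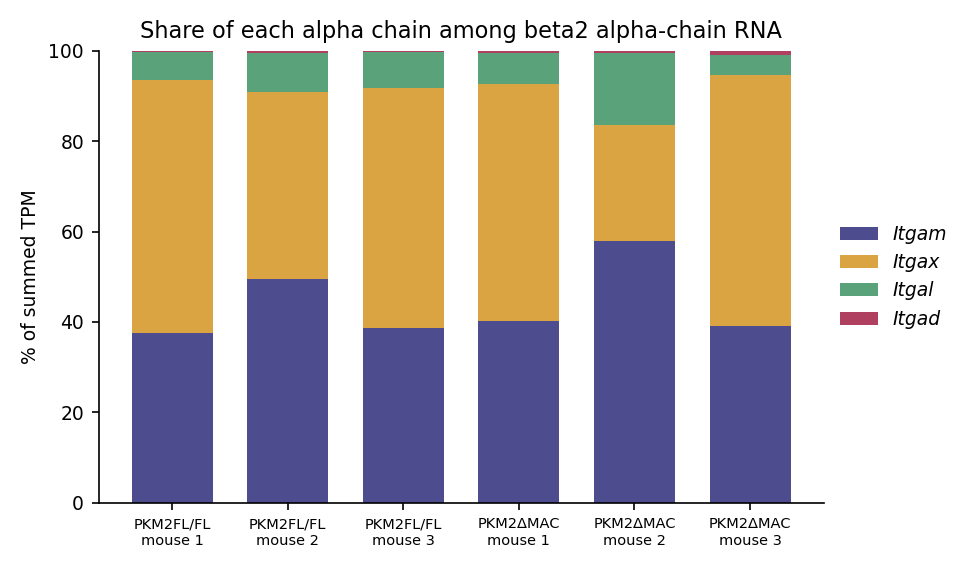
Share of Itgam, Itgax, Itgal and Itgad in the summed TPM of the 4 β2 alpha genes, 1 bar per library. Itgam has the larger share than Itgax in mouse 2 of both genotypes (49.5% and 58.0%) and the smaller share in the other 4 libraries (37.5% to 40.3%).

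The β1 integrin genes were among the steadiest of the family. Itgb1, the shared β1 chain, was 925, 911 and 908 CPM in PKM2FL/FL mice 1 to 3 and 931, 917 and 914 CPM in PKM2ΔMAC mice 1 to 3. Its log2 fold change was 0.01 (SE 0.04, 95% interval -0.08 to 0.10, adjusted p = 0.966 in edgeR), an interval that does not reach the value of Itgam. Its coefficient of variation, 1.02% in PKM2FL/FL and 0.991% in PKM2ΔMAC, was as small as the spread of Itgam in the controls.

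Itga4, the α4 chain of VLA-4, was 127.3, 127.8 and 126.7 CPM in PKM2FL/FL mice 1 to 3 and 121.5, 131.9 and 123.1 CPM in PKM2ΔMAC mice 1 to 3. Itga5, the α5 chain of the fibronectin receptor, was 203, 184 and 193 CPM against 197, 190 and 187 CPM. Itga6, an alpha chain of laminin receptors, was 388, 400 and 390 CPM against 430, 382 and 380 CPM. The genotypes overlapped for all 3 genes. Their log2 fold changes were -0.02 (SE 0.04, 95% interval -0.12 to 0.08) for Itga4, -0.01 (SE 0.05, 95% interval -0.12 to 0.09) for Itga5 and 0.02 (SE 0.05, 95% interval -0.11 to 0.14) for Itga6, with adjusted p of 0.923, 0.959 and 0.953 in edgeR, and on the TPM scale those of Itga4 and Itga5 turned to 0.05 and 0.06, close to the shift of all genes on that scale. The summed TPM of these 3 alpha chains was 40.7 ± 0.273% of that of Itgb1 in PKM2FL/FL and 40.4 ± 1.33% in PKM2ΔMAC (SD, n = 3 each).

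Itgb7, the β7 chain of lymphocyte homing receptors, was low and was raised in a lone library. It was 8.20, 8.45 and 10.4 CPM in PKM2FL/FL mice 1 to 3 and 8.57, 20.3 and 8.10 CPM in PKM2ΔMAC mice 1 to 3. The value of PKM2ΔMAC mouse 2 lay above the other 5, which overlapped. The log2 fold change, 0.45 (SE 0.40, 95% interval -0.57 to 1.47, adjusted p = 0.790 in edgeR), turned to -0.11 without that library. The same library held the highest Itgal, and its ratio of Itgb7 to Itga4 in TPM was 77.6%, against 32.5% to 41.6% in the other 5.

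On the per-length TPM scale, the beta chain genes were the most abundant members in PKM2FL/FL BMDMs, with Itgb2 at 954 ± 138 and Itgb1 at 785 ± 8.66 TPM (SD, n = 3). Itgax (168 ± 47.6), Itga6 (150.4 ± 4.32), Itga5 (137 ± 5.18) and Itgam (136 ± 0.684 TPM) followed, then Itga4 (31.9 ± 0.486), Itgal (24.6 ± 3.00), Itgb7 (11.4 ± 1.52) and Itgad (1.17 ± 0.199 TPM). Of the 9 pairs of neighbours in this order, 7 did not overlap, and the exceptions were Itgax with Itga6 and Itga5 with Itgam. In PKM2ΔMAC BMDMs the order was Itgb2 (1042 ± 231), Itgb1 (830.5 ± 25.5), Itgax (199.9 ± 95.4), Itgam (193 ± 11.8), Itga6 (159.9 ± 10.6), Itga5 (143 ± 5.56), Itgal (36.4 ± 17.8), Itga4 (33.1 ± 2.53), Itgb7 (16.6 ± 9.86) and Itgad (2.99 ± 1.35 TPM). Here 6 of 9 pairs did not overlap, and Itgb2 with Itgb1, Itgax with Itgam and Itgal with Itga4 did. Itgam therefore stood at rank 6 of the members in PKM2FL/FL and at rank 4 in PKM2ΔMAC. Over all 6 libraries the mean TPM of Itgb2 was at the 99.4th percentile of the genes tested, that of Itgam at the 94.4th and that of Itgad at the 23.5th.

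Since several members are also carried by other leukocytes, marker genes were read beside them. All 8 macrophage markers were tested and abundant, with a summed level between 8367 and 8690 TPM in PKM2FL/FL and between 8833 and 9484 TPM in PKM2ΔMAC, and 0 were called by edgeR (1 at an unadjusted p under 0.05, and 1, Adgre1, by DESeq2 and also without PKM2ΔMAC mouse 2). Of the 8, 2 were higher and 6 lower in PKM2ΔMAC, with a median log2 fold change of -0.04. The most abundant, Cd68, gave -0.07 (SE 0.13, adjusted p = 0.906), and Adgre1, the gene of F4/80, gave 0.26 (SE 0.07, adjusted p = 0.236). Of 11 neutrophil markers, Ly6g was not among the symbols and Retnlg was not tested. All 9 that were tested were higher in PKM2ΔMAC. The 10 among the symbols, Retnlg included, summed to 69.0 to 173 TPM in PKM2FL/FL and 325 to 662 TPM in PKM2ΔMAC. None of the 9 was called by edgeR, while 5 had an unadjusted p under 0.05, beside 9.83% of all genes tested. Of the 9, 5 lay higher in every PKM2ΔMAC library, beside 17.2% of all genes not overlapping in either direction. DESeq2 called 5, S100a8, S100a9, Ngp, Ltf and Camp, beside 302 of all 16516 genes. Without PKM2ΔMAC mouse 2, edgeR called 0 of the 9, beside 299 of 16913 genes. The part of neutrophil RNA in the values of Itgam and Itgad was not tested.

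The 5 monocyte markers summed to 62.1 to 82.2 TPM in PKM2FL/FL and 67.4 to 102 TPM in PKM2ΔMAC, and the 6 dendritic cell markers to 3.44 to 3.72 and 3.30 to 3.85 TPM. Markers of B cells (3.02 to 4.25 and 4.47 to 5.16 TPM) and of T and NK cells (0.668 to 1.00 and 0.426 to 0.640 TPM) were near 0, and most of them were too low to be tested. Megakaryocyte and erythroid markers, nearly all from Pf4, summed to 145 to 161 and 136 to 189 TPM. The 6 stromal and endothelial markers, mainly the collagen genes Col1a1 and Col1a2, summed to 1708 to 1966 TPM in PKM2FL/FL and 1974 to 2422 TPM in PKM2ΔMAC. In none of these 6 lists did edgeR call a gene (at an unadjusted p under 0.05, 1 B cell and 1 stromal marker). DESeq2 called 1 of the 6 stromal and endothelial markers, Pdgfrb, beside 302 of all 16516 genes. Without PKM2ΔMAC mouse 2, edgeR called 3 of these 6, Col1a1, Pdgfrb and Cdh5, beside 299 of 16913 genes. The part of all these cell types in the values of the integrin genes was not tested.

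The other integrin subunits were read as the nearest relatives of the members. Of 17 listed, 16 were tested, 8 higher and 8 lower in PKM2ΔMAC, and 0 were called by edgeR (4 at an unadjusted p under 0.05, and 0 by DESeq2). Their median log2 fold change was -0.01, beside 0.12 for the 10 members and -0.000207 for all genes tested. The most abundant were Itgb5, a beta chain that pairs with αV, at 571 to 638 TPM, and Itgav itself, at 91.9 to 99.3 TPM in PKM2FL/FL and 101 to 124 TPM in PKM2ΔMAC. Itgav lay higher in every PKM2ΔMAC library, at 0.16 (SE 0.06, adjusted p = 0.416). Named after their values were seen, Itgb3, the beta chain of platelet and vitronectin receptors, gave -0.75 (SE 0.26, adjusted p = 0.451) and lay lower in every PKM2ΔMAC library, and Itgb2l, a relative of Itgb2 at no more than 1.17 TPM, gave 1.85 (SE 0.57, adjusted p = 0.340).

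Genes that switch integrins on from inside the cell and link them to actin come next. Of the 21 listed, 19 were tested, 8 higher and 11 lower, their median log2 fold change being -0.01, and 0 were called by edgeR (4 at an unadjusted p under 0.05, and 0 by DESeq2). Flna, the gene of the actin crosslinker filamin A, was 783 to 836 TPM in PKM2FL/FL and 877 to 1097 TPM in PKM2ΔMAC, a log2 difference of 0.15 (SE 0.07, adjusted p = 0.516). Rap1b, a small GTPase that acts upstream of talin, was 601 to 616 and 627 to 663 TPM, with 0.02 (SE 0.04, adjusted p = 0.905). Of the 24 genes of signalling from bound integrins, all were tested, 14 higher and 10 lower, with a median of 0.005, and 0 were called by edgeR (2 at an unadjusted p under 0.05). Tyrobp and Fcer1g, adaptor chains that relay β2 signals to Syk, were the most abundant of these, at 2392 to 2698 and 1977 to 2136 TPM, and their log2 fold changes were 0.01 and -0.04. DESeq2 called 1 gene of this list, Tns1, a focal adhesion protein, with -0.44 (adjusted p = 0.0419, and 0.425 in edgeR).

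Among the genes of integrin ligands, 21 of 27 were tested, 15 higher and 6 lower, their median log2 fold change being 0.11. None was called by edgeR (6 at an unadjusted p under 0.05), and DESeq2 called 1, Vcam1, the ligand of α4β1, with 1.15 (SE 0.20, adjusted p = 1.289e-06, and 0.258 in edgeR). Vcam1 was 7.76, 7.64 and 8.19 TPM in PKM2FL/FL mice 1 to 3 and 16.1, 13.8 and 24.9 TPM in PKM2ΔMAC mice 1 to 3, without overlap. The most abundant ligand was Spp1, which encodes osteopontin, at 6115 to 6876 TPM in PKM2FL/FL and 5098 to 9389 TPM in PKM2ΔMAC, followed by Fn1, the fibronectin gene, at 544 to 589 and 555 to 703 TPM. The log2 fold changes were 0.20 (SE 0.26) for Spp1 and 0.09 (SE 0.10) for Fn1, neither called. Without PKM2ΔMAC mouse 2, edgeR called 3 of the pathway genes, Itgb2l, Tns1 and Spp1 (2.27, -0.29 and 0.44), and without PKM2ΔMAC mouse 3 it called 1, Vcam1 (0.84).

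Of the selectins and other adhesion molecules, 10 of 11 were tested, 7 higher and 3 lower, their median log2 fold change was 0.04, and 0 were called by edgeR (2 at an unadjusted p under 0.05) or DESeq2. Sirpa, an inhibitory receptor of macrophages for CD47, was 1849 to 1967 TPM in PKM2FL/FL and 1898 to 2119 TPM in PKM2ΔMAC, and Cd9, a tetraspanin, was 499 to 621 and 484 to 701 TPM. The 10 transcription factors known to act on integrin genes in myeloid cells were all tested, 6 higher and 4 lower, their median was 0.02, and 0 were called by edgeR (3 at an unadjusted p under 0.05) or DESeq2. Spi1, whose product binds the core marked before Itgam, was 454 to 461 TPM in PKM2FL/FL and 453 to 530 TPM in PKM2ΔMAC, a log2 difference of 0.01 (SE 0.05, adjusted p = 0.966). Cebpa, another factor of the myeloid lineage, was 386 to 412 and 388 to 411 TPM, with -0.05 (SE 0.05, adjusted p = 0.810). Named after their values were seen, 3 of the 10 did not overlap between genotypes, beside 17.2% of all genes tested. Irf8 lay lower in every PKM2ΔMAC library, at -0.17 (SE 0.04, adjusted p = 0.232), and Sp1 and Ets1 lay higher, at 0.10 (SE 0.04, adjusted p = 0.494) and 0.19 (SE 0.07, adjusted p = 0.431).

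The genes around Itgam were read because the β2 alpha genes are clustered. Of 31 tested genes that start within 500 kb of Itgam, 15 were higher and 16 lower, and their log2 fold changes ranged from -0.29 to 1.29 around a median of -0.01, with Itgad the highest. None was called by edgeR, 1 (Itgad) had an unadjusted p under 0.05, and DESeq2 called 1, again Itgad. Of 12 tested genes around Itgb2, 4 were higher and 8 lower, with a median of -0.04, and 0 were called by edgeR (2 at an unadjusted p under 0.05) or DESeq2.

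**Figure D5:**
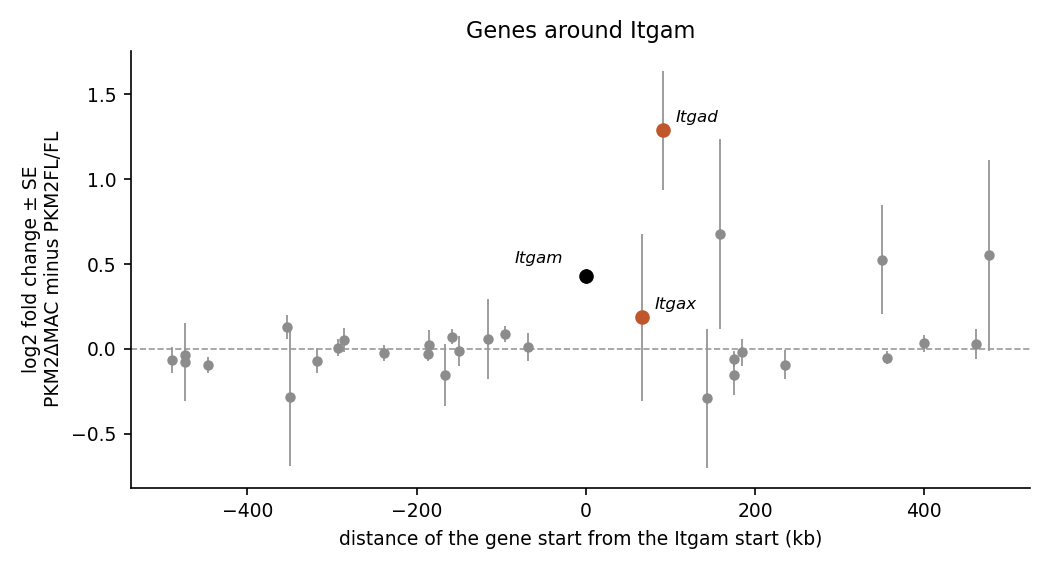
Log2 fold change with its SE of the tested genes that start within 500 kb of the start of Itgam, against distance. Itgam is black at 0, Itgax and Itgad are orange, and the other neighbours are grey. The median of the 31 neighbours is -0.01, and Itgad (1.29) has the highest value.

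Over the 6 libraries, the genes whose log2 CPM profile lay closest to that of Itgam were sought among 8980 genes with a mean of at least 10 TPM, by the root mean square difference of centred values. Msr1, the macrophage scavenger receptor A, was nearest (0.057 log2 units), followed by Cpsf6 (0.058), a pre-mRNA cleavage factor, Dkc1 (0.058), the dyskerin pseudouridine synthase, Smarcc1 (0.062), a chromatin remodelling subunit, and Actb (0.064), the β-actin gene. Msr1 was 141, 126 and 135 CPM in PKM2FL/FL mice 1 to 3 and 164, 177 and 186 CPM in PKM2ΔMAC mice 1 to 3. None of the other integrin members was near Itgam by this measure. The closest was Itgb1 (0.214, rank 2710), while Itgb2 ranked 8275 and Itgax 8907. Itgb1 hardly varied between libraries, so its rank reflects a flat profile and not one shared with Itgam. The measure is a description over 6 libraries that share the genotype difference used to choose the family.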

How the data were processed

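RNA-seq of BMDMs from 3 PKM2FL/FL and 3 PKM2ΔMAC mice was used. The deposited files hold raw counts for each gene symbol and the authors' TPM values for all 6 libraries (n = 3 per genotype). The submitters' processing notes name FastQC 0.12.1, Trim Galore 0.6.10, HISAT2 2.2.1, SAMtools 1.19.2, Subread 2.0.6 and mm10. The annotation, the gene lengths behind TPM and the strand setting are not given in the sources used here. Columns were matched to libraries by the genotype and mouse number in their names.

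Counts were tested with edgeR 4.0.16 (R 4.3.3, limma 3.58.1) by the quasi-likelihood test with TMM scaling, filterByExpr and Benjamini-Hochberg adjustment over the 16516 genes tested, with genotype as the only term. CPM and TPM are given as mean ± SD. With 49957449 to 54524651 counts per library, members were counted between 65 (Itgad) and 51080 times, and precision rests on 3 mice per genotype. Within each genotype no libraries agreed within sampling noise (chi-square per degree of freedom 6.43 to 43.5), so each was kept as a replicate. Positions came from GENCODE M21 and promoters from RefSeq (GRCm38.p6), in which 6 of 10 members were matched. Functions were tested on simulated data.

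The members and lists were chosen with earlier results of these data known. Named genes are the 10 members, Pkm, Lyz2, the called genes of each pathway list or, where none was called, its 2 most abundant genes, called neighbours, and the 5 genes most like Itgam. Genes that overlap a member and some marker genes are named besides, and other genes outside this rule are marked in the text or were called by an alternative. Alternatives were DESeq2 1.42.0, other scaling factors and filters, non-robust estimation, a replicate block, each library left out, limma-trend on log2(TPM + 1) and log2(TPM + 0.1), and, added after the data were seen, both libraries numbered 2 left out. Data of the study other than these libraries were not analysed here.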

Additional observations from a re-analysis of the deposited data

How the results depend on the processing

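The log2 fold change of Itgam, the value on which the family was chosen, lay between 0.40 and 0.50 over the 18 alternatives, as a description. The number of genes called was 302 with DESeq2, 120 without a filter on low counts, 41, 34 and 36 with limma-trend on log2(TPM + 1), on log2(TPM + 0.1) and without a filter, 212 without both libraries numbered 2, and between 22 and 299 when each library was left out. The number of members called was 2 with DESeq2 and without both libraries numbered 2, and between 1 and 2 when each library was left out, the added member being Itgad each time. The genes called from the 6 pathway lists numbered 2 with DESeq2, 6 without both libraries numbered 2 (Itgb2l, Itgb3, Parvg, Tns1, Fgr and Spp1), and between 0 and 3 when each library was left out.

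Members with small or variable differences changed sign. Leaving out each library gave 0.87 to 1.57 for Itgad and 0.063 to 0.73 for Itgal, which kept their signs, -0.11 to 0.55 for Itgax, -0.072 to 0.25 for Itgb2, -0.056 to 0.0029 for Itga4, -0.047 to 0.023 for Itga5, -0.044 to 0.048 for Itga6 and -0.11 to 0.68 for Itgb7, which was -0.16 without both libraries numbered 2. On the TPM scale Itga4 was 0.050, 0.051 and 0.050 and Itga5 0.060, 0.061 and 0.060. Of these values only the 1.57 of Itgad, without PKM2ΔMAC mouse 2, was called. The cause of the changes was not tested. Pkm lost its call in 6 alternatives, with a log2 fold change of -0.61 to -0.68 in them.

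The mouse numbers were not taken to pair the samples, since deviations of same-numbered libraries correlated at 0.0695, 0.12 and 0.0114 over 16516 genes, not each over 0.1. As a hint from the data, each library correlated best with its own number except PKM2ΔMAC mouse 3, whose best match was PKM2FL/FL mouse 1 (0.0557). With the replicate block, 82 genes were called, 55 of them among the 68, and 1 member, Itgam (0.43). The block gave 0.04 for Itgb2 (SE 0.08, against 0.23 without it) and 0.08 for Itgax (SE 0.21, against 0.49), neither called. Itgad had the fewest counts of the members, 65 to 277.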
